A study of Mus musculus with 2 samples.

Results

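The AP-1 and immediate early genes described here are the 10 genes Fos, Fosb, Fosl1, Fosl2, Jun, Junb, Jund, Egr1, Ier2 and Ier3. They were taken by gene symbol from the array's annotation, among 18193 genes named by a probe set with 1 symbol, by a rule that uses no measured value. The members were, however, chosen with earlier results of these data known. The RNA came from small-intestinal crypts of mice whose Lpcat3 alleles are floxed, genotype Lpcat3 F/F (the control, titled WT), and of mice with the same alleles and Villin-CreERT2 (the knockout). Lpcat3 encodes lysophosphatidylcholine acyltransferase 3, which puts polyunsaturated fatty acids into membrane phospholipids, and Villin-CreERT2 is a Cre recombinase under a promoter of the intestinal epithelium that acts after tamoxifen. All mice, aged 8 to 10 weeks, were given 1 mg of tamoxifen per mouse per day for 5 days by intraperitoneal injection. Crypts were taken 2 weeks afterwards, and the RNA of 5 mice per genotype went as 1 pool onto 1 Affymetrix array. With 1 array per genotype no test was possible, and genotype, the Cre transgene, the pool, the handling of the crypts and the array cannot be told apart.

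AP-1 is a dimer of basic leucine zipper (bZIP) proteins, made of a Jun protein with a Fos protein, with another Jun protein or with a related ATF or MAF protein. Immediate early genes are transcribed within minutes of a stimulus from factors already present in the cell, such as SRF with its ELK partners and CREB, which are activated by MAP kinases. Their transcripts are short-lived, and they are also known to be induced while tissue is dissociated. In the intestinal epithelium Jun and Fos proteins are known as effectors of growth factor, Wnt and stress signalling.

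Signals are MAS5 values in arbitrary units, 1 per probe set and array. A probe set was taken as measured where it reached 92.9, the 50th percentile over both arrays without control probe sets, on at least 1 array. This floor was also the lowest value used in a log2 ratio, which is always knockout over control. Genes are represented by their brightest probe set. On this basis 11496 genes were measured, with a median log2 ratio of -0.042 and an SD across genes of 0.44. The error of a ratio was taken from genes with a second probe set, both being above the floor on both arrays. Its SD was 0.28 on the log2 scale over 4582 genes. By the signal of the dimmer probe set of each pair, it was 0.34 below 300, 0.26 from 300 to 1000 and 0.18 from 1000 upwards. Member probe sets were placed in these classes by their own mean signal, so the error of a dim one may be understated. The spread between mice or pools is not part of the probe error, and having only 2 arrays limits how precise any value is. The targeted gene checked the labels, since Lpcat3 stood at 4691 in the control and at 928 in the knockout pool (log2 ratio -2.34), though where its probe set lies relative to the floxed part is not stated. The labelled tissue was checked by 11 epithelial genes, among them Epcam and Vil1, and all 11 were measured on both arrays. These are genes of crypt and villus epithelium alike, so they do not tell crypts from villi.

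The 10 members had 14 probe sets, each annotated with 1 symbol only, of which 10 were measured, all of these on both arrays. They stand for 8 of the 10 genes, since Fosb and Fosl1 were below the floor on both arrays. The members did not differ in a common direction. Of the 8 measured genes, 4 were higher and 4 lower in the knockout pool, with a median log2 ratio of 0.046 and a range from -0.36 to 0.83. Among all measured genes 44.9% were higher. Ier3 and Fos were higher by at least 1.5-fold and no measured member was lower by as much by its brightest probe set, where 4.76% (547 genes) and 8.74% (1005 genes) of all measured genes were. That split depends on the scaling, with 705 genes higher and 841 lower after median centring. No measured probe set of a member reached 2-fold, a size that 3.73% of all measured genes reached in either direction.

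**Figure D1:**
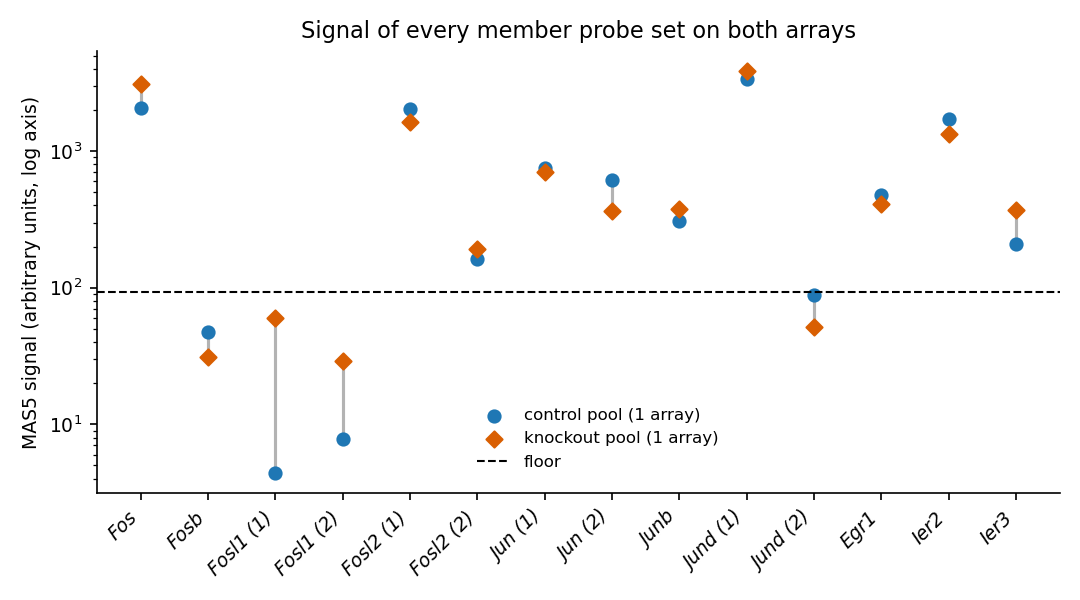
MAS5 signal (arbitrary units, log axis) of each of the 14 member probe sets in the control pool (circle) and the knockout pool (diamond), with 1 array per pool; genes with several probe sets are numbered from the brightest. The 4 probe sets of Fosb, Fosl1 and the second one of Jund lie below the dashed floor of 92.9 on both arrays.

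Of the Fos family, whose proteins need a Jun partner to bind DNA, Fos and Fosl2 were measured. Fos, the prototype of the immediate early genes, had a signal of 2084 in the control and 3127 in the knockout pool by its 1 probe set (1423100_at). The knockout signal was thus higher, with a log2 ratio of 0.59, 3.19 times the SD of probe error at that signal. The gene lay just past the 1.5-fold limit, at 1.5008-fold, and 13.5% of all measured genes had a ratio at least as far from 0. Among genes of mean signal 1000 or more, the class of Fos, 3.88% were at least 1.5-fold higher. Its ratio ranged from 0.56 to 0.65 under 8 alternative settings and was below 1.5-fold after quantile normalisation, after lowess and with a pseudocount.

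Fosl2 encodes Fra-2, a Fos protein without the strong activation domain of Fos. Its brighter probe set (1437247_at) had 2039 in the control and 1628 in the knockout pool, lower by a log2 ratio of -0.32. Its dimmer probe set (1422931_at) went the other way, with 162 in the control and 193 in the knockout pool (0.25), which is within 1 SD of the probe error at that signal. The ratios differed by 0.58, a gap reached by 13.4% of the 4582 genes with a second measured probe set, and their mean was -0.037. The probe sets of Fosl2 thus gave no common direction. In all, 65.7% of such pairs had the same sign.

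Fosb and Fosl1 were not measured. Fosb, an inducible Fos family gene, had 47.5 in the control and 31.3 in the knockout pool. Fosl1 encodes Fra-1, a Fos protein known from migrating and wound-edge epithelium, and its probe sets had 4.38 and 7.84 in the control and 60.2 and 29.2 in the knockout pool. All 6 values lay below the floor, where signals have no reliable order, so no ratio is given. Under a floor at the 30th percentile (34.8), the Fosl1 probe set 1417487_at alone passed, on the knockout array, as a bound of at least 1.73-fold higher, and Fosb passed on the control array as at least 1.37-fold lower.

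The Jun family, whose proteins can pair with themselves, with Fos proteins and with ATF proteins, was measured for each of its 3 genes. Jun, the founding member, was read by a pair of probe sets that differed in size of ratio but not in sign. The brighter one (1417409_at) had 754 in the control pool and 699 in that of the knockout (log2 ratio -0.11), which is 0.42 times the probe error. The other (1448694_at) had 618 in the control and 363 in the knockout pool, lower by 1.70-fold (-0.77), 2.96 times the probe error. This was the 1 member probe set of the 10 measured that was at least 1.5-fold lower, against 8.35% of all measured probe sets, while 2 of the 10 were at least 1.5-fold higher, against 5.16%. The gap of 0.66 between both was reached by 9.89% of genes with a second measured probe set, and the mean of both was -0.44. Jun was thus lower by both, but beyond the probe error only by 1448694_at, and the size of the difference depended on the probe set.

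Junb, which encodes a Jun protein that often opposes Jun in growth control, had 306 in the control and 375 in the knockout pool (log2 ratio 0.29, 1.12 times the probe error). Jund, a Jun family gene that is expressed without a stimulus in most cells, had 3366 in the control and 3869 in the knockout pool by 1449117_at (0.20, 1.09 times the probe error). Both were slightly higher in the knockout pool, by about the probe error. The second Jund probe set (1440265_at), with 88.4 and 51.5, was below the floor on both arrays. The 3 Jun family genes had a median of 0.20.

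**Figure D2:**
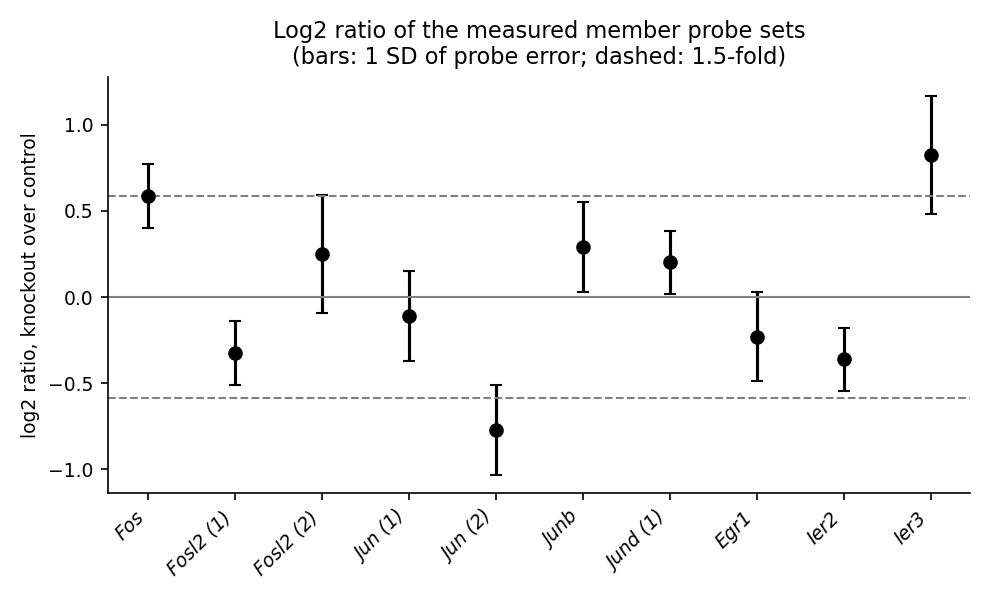
Log2 ratio, knockout over control, of the 10 measured member probe sets; bars are 1 SD of the probe error for the signal class of each, and dashed lines mark 1.5-fold. Ier3 and Fos lie highest at 0.83 and 0.59, the second Jun probe set lowest at -0.77, and the probe sets of Fosl2 lie on opposite sides of 0.

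The other 3 members are not bZIP genes. Egr1, a zinc finger factor induced through SRF and its ELK partners, had 478 in the control and 408 in the knockout pool. Its log2 ratio of -0.23 was 0.88 times the probe error, and 29.5% of all measured genes had a lower ratio. Ier2, an immediate early gene of a small nuclear protein, had 1707 in the control and 1330 in the knockout pool (-0.36, 1.96 times the probe error). Of the 8 measured members it had the lowest ratio by the brightest probe set, and 19.1% of all measured genes had a lower one.

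Ier3, also called IEX-1, is a stress-inducible regulator of apoptosis and of ERK and NF-kappaB signalling. It had 209 in the control and 371 in the knockout pool by its 1 probe set (1419647_a_at). At a log2 ratio of 0.83 (1.77-fold higher), 2.41 times the probe error, it had the highest ratio of the 8 members, and 6.29% of all measured genes had a ratio at least as far from 0. Its signal class is the noisiest, since among measured genes of mean signal under 300 the share at least 1.5-fold higher was 6.78% and the share 1.5-fold lower was 15.0%. Under a floor at the 70th percentile (318) only a bound of 0.22 was left, because the control signal lies below that floor.

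**Figure D3:**
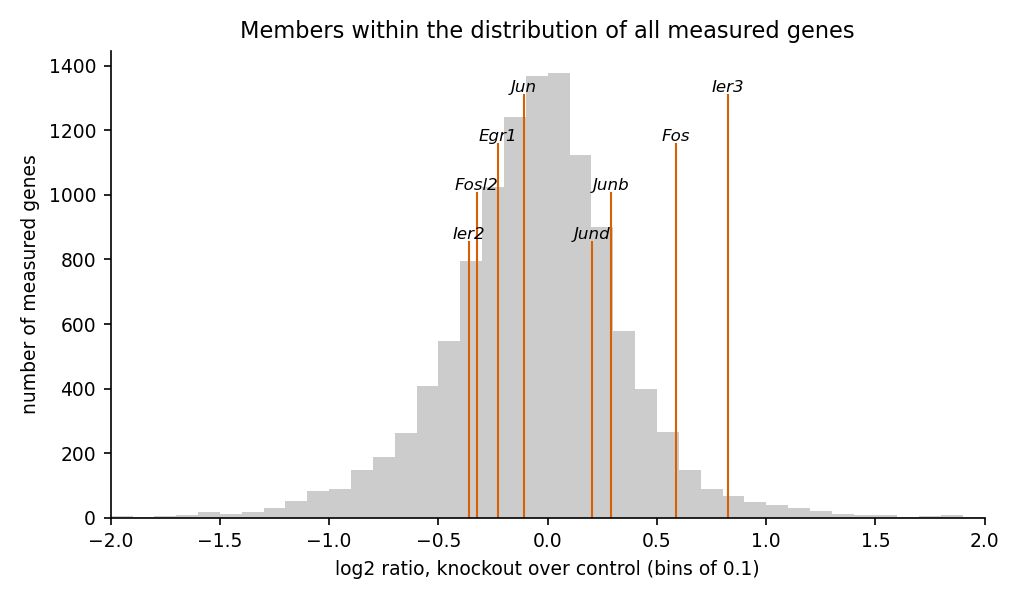
Number of measured genes per bin of 0.1 in log2 ratio, knockout over control (bars, drawn from -2 to 2; 47 of 11496 genes lie beyond), with the brightest probe set of each measured member marked by a line whose height has no meaning. Of the 8 members, 6 lie within 1.5-fold of 0, and Fos (0.59) and Ier3 (0.83) lie in the upper tail.

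Since immediate early genes are known for short regulatory elements near their start, the 250 bases before the start were searched in the promoter table from RefSeq (GRCm38.p6), which matched 7 of the 10 members; Fosl1, Egr1 and Ier2 had no entry. The windows of the members that differed most are printed: Fos and Ier3, the 2 at least 1.5-fold higher, and Jun, whose second probe set was the lowest. They run 5′ to 3′ on the gene's strand and end at the last base before the start, at chr12:85473640-85473889 (plus strand) for Fos, chr17:35821463-35821712 (plus strand) for Ier3 and chr4:95052223-95052472 (minus strand) for Jun. Capitals mark matches, on either strand, to the CArG box bound by SRF, to TGACNTCA (the CRE and the related Jun element), to TGACG (a CRE half-site, part of TGACNTCA where N is G), to the AP-1 site TGACTCA, to GCGNGGGCG (an EGR site) and to TATAAA.
Fos: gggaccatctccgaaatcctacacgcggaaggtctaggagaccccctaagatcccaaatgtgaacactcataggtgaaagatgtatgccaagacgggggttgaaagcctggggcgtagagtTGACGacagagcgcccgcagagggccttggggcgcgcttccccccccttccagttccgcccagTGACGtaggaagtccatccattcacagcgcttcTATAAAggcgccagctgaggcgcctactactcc
Ier3: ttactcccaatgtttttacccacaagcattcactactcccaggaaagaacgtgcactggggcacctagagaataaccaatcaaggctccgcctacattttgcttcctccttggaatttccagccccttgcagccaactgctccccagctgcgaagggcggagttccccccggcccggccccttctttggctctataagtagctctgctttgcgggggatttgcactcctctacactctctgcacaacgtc
Jun: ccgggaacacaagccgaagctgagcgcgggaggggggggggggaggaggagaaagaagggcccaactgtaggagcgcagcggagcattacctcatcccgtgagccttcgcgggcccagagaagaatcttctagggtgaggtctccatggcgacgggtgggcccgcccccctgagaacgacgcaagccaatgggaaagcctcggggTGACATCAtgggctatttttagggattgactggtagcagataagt

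The Fos window held TGACG at bases -129 to -125 and -66 to -62, counted back from the start, and TATAAA at -33 to -28. The Jun window held 1 match, TGACATCA at -45 to -38, of the form TGACNTCA. The Ier3 window held none of the searched letters, which says only that they are not in these 250 bases. Of the 7 member windows 3 (Fos, Fosb and Junb) held TGACG, against 17.8% of all 32851 windows in the table. GCGNGGGCG was present in 2 (Fosb and Fosl2), against 4.70%, TGACNTCA in 1 against 7.49% and TATAAA in 1 against 12.4%. G or C made up 58.4% of the Fos window, 68.8% of Fosb, 64.4% of Fosl2 and 66.4% of Junb. For Jun it was 61.2%, for Ier3 54.4% and for Jund 47.6%, with a median of 52.4% over all windows. The part of base composition in these shares was not tested. Neither a CArG box (1.47% of all windows) nor TGACTCA (4.46%) was found in any of the 7. This too holds only for these 250 bases, and Fosl1, Egr1 and Ier2 had no window to search. Fos, higher in the knockout pool, and Junb, near the probe error, both held TGACG, and Ier3, the highest member, held no match. These matches are a description of the sequence, and no binding was measured.

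Other immediate early genes and genes of their feedback were set beside the members. Of 45 listed, 36 were measured, with a median log2 ratio of -0.038. Of these, 16 were higher and 20 lower, where 44.9% of all measured genes were higher. Of the 36, 8 were higher by at least 1.5-fold, against 4.76% of all measured genes, 2 were lower by as much, against 8.74%, and 26 lay between. Plk3, a stress-responsive kinase gene, was at least 3.59-fold higher, with 69.9 in the control pool, below the floor, and 333 in the knockout pool. Rhob, an immediate early small GTPase gene, had 345 in the control and 817 in the knockout pool (1.24). Maff, a small MAF gene, had 112 and 232 (1.05), and Atf3, a stress-induced ATF gene whose protein pairs with Jun, had 235 and 454 (0.95). Socs3, a feedback inhibitor of cytokine signalling, was higher by all 3 of its probe sets (0.90, 1.04 and 0.93). Dusp6, the phosphatase gene that limits ERK activity and is used as its readout, had 609 and 1116 (0.87). Gadd45g (0.60) and Egr3 (0.60) were also past the limit, both, like Plk3 and Maff, at low signal.

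At the low end of that list Sgk1, a kinase gene induced by glucocorticoid and mineralocorticoid hormones, had 2215 in the control and 564 in the knockout pool (-1.97, 3.93-fold lower). Btg1, an antiproliferative gene, had 7069 and 4638 (-0.61), with -0.59 and -0.63 by its other probe sets. Nr4a2, an orphan nuclear receptor gene, had -0.57 by its brightest probe set and was lower by its 3 others. The phosphatase gene Dusp1, another ERK, JNK and p38 feedback gene, was at 0.29, and Zfp36, which speeds the decay of immediate early transcripts, at 0.18. Dimmer probe sets past 1.5-fold lower were seen for Nfkbia (-0.68), Ier5 (-0.65) and Pim1 (-0.65), whose brightest lay at -0.37, -0.25 and -0.22. Egr2, Nr4a3, Klf2, Ccn1, Ccn2, Ier5l, Csrnp1, Arc and Ptgs2, that is 9 of the 45, were below the floor on both arrays. The list thus held higher and lower genes about a median near that of all genes. Of its 36 measured genes, 8 were at least 1.5-fold higher, against 4.76%, and 2 lower, against 8.74%.

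**Figure D4:**
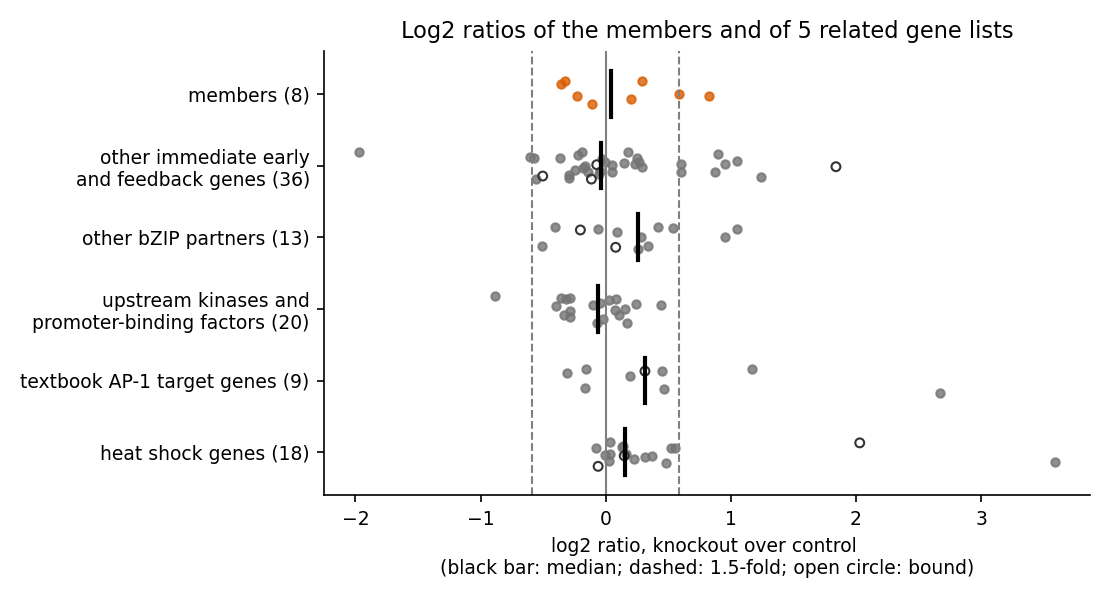
Log2 ratio, knockout over control, of each measured gene in the member set and in 5 related lists (number measured in brackets), with the median as a black bar, 1.5-fold as dashed lines and bounds as open circles; vertical scatter has no meaning. The medians lie between -0.060 (upstream) and 0.31 (AP-1 targets), and genes far from 0 include Hspa1b at 3.59, Sprr1a at 2.67, Hspa1a at a bound of 2.03 and Sgk1 at -1.97.

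Other bZIP genes whose proteins can pair with Jun or Fos proteins, or bind related sites, had a median of 0.26 over 13 measured of 16, which was 0.16 with probe sets summarised by their median and 0.17 after quantile normalisation. Of the 13, 9 were higher and 4 lower, where 44.9% of all measured genes were higher. Maff and Atf3, which are also in the list above, were the 2 at least 1.5-fold higher, against 4.76% of all measured genes, and none of the 13 was 1.5-fold lower by its brightest probe set, against 8.74%. A dimmer probe set of Maf was at -0.63, while its brightest was at 0.094. Batf2 followed at 0.54 and Ddit3, which encodes the stress factor CHOP, at 0.42. Nfe2l1 (-0.51), Atf2 (-0.41, lower by all 4 probe sets) and Atf7, as a bound of at least 1.15-fold lower, were lowest. Nfe2l2, which encodes NRF2, was at 0.26.

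The kinases that activate AP-1 and the factors that bind immediate early promoters had a median close to 0 at the transcript level. Of 30 listed, 23 had a probe set with 1 symbol and 20 were measured, with a median of -0.060. Of these, 8 were higher and 12 lower, where 44.9% of all measured genes were higher. By the brightest probe set none of the 20 was at least 1.5-fold higher, against 4.76% of all measured genes, and Rps6ka5, the gene of the nuclear kinase MSK1, was the 1 at least 1.5-fold lower (288 and 157, -0.88, with -0.42 by its other probe set), against 8.74%. Dimmer probe sets past the limit were those of Map3k5 (-0.74), Braf (-0.61) and Mapk14 (0.63). Map2k3, a kinase upstream of p38, was highest at 0.44, followed by Crem (0.24) and Map2k2 (0.17), whose other probe set was lower (-0.47). Mrtfb, a cofactor of SRF, was at -0.40 and Mapk9, which encodes JNK2, at -0.36. Srf itself was at 0.15 and Creb1 at -0.072, with -0.44 and 0.20 by its other probe sets. Transcript levels do not show the phosphorylation by which these proteins are activated.

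Of 22 textbook targets of AP-1, 9 were measured, 6 higher and 3 lower, where 44.9% of all measured genes were higher. The targets had a median of 0.31. The median was 0.20 under either other floor and 0.13 with a pseudocount, which takes in 20 genes. Sprr1a, a gene of the squamous cell envelope, had 98.4 in the control and 628 in the knockout pool (2.67). Plaur, the urokinase receptor gene, had 131 and 293 (1.17). These 2 were past 1.5-fold, against 4.76% of all measured genes, and none of the 9 was lower by as much by its brightest probe set, against 8.74%. Hbegf, an ErbB ligand gene, was at 0.46 and 1.08 by its probe sets, Ezr, the gene of the brush border linker ezrin, at 0.45 and 1.17, and Ccnd1 at 0.20. Vim (-0.31), Cd44 (-0.17) and Mmp14 (-0.16) were lowest, and dimmer probe sets were past 1.5-fold lower for Vim (-0.76) and Mmp14 (-0.77). A further 11 genes, among them Mmp3, Mmp10, Mmp13, Il6, Il11, Timp1 and Plau, were below the floor on both arrays, so most of these targets were not measured.

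Heat shock genes, which like the members respond to handling of tissue, are given for that reason. Of 18 measured genes 15 were higher and 3 lower, where 44.9% of all measured genes were higher. The median of the list was 0.16, or 0.27 without _s_at and _x_at probe sets. Hspa1b, an inducible HSP70 gene, had 387 in the control and 4651 in the knockout pool (3.59), and Hspa1a, its near-identical neighbour, was at least 4.08-fold higher; the array may not tell both apart. None of the other 16 was past 1.5-fold by its brightest probe set. Of all measured genes 4.76% were higher and 8.74% lower by as much. Dimmer probe sets of Hspa8 (1.05), Hsph1 (0.80), Hspe1 (0.62) and Dnaja1 (0.59) were past 1.5-fold. Bag3 (0.55), Dnaja1 (0.52), Hsph1 (0.48) and Dnajb1 (0.37), all induced by heat shock factor, came next, while Stip1 (-0.081), Hspb8 (at least 1.04-fold lower) and Hspb1 (-0.0085) were lowest. The Hspa1a and Hspa1b differences were thus larger than that of any measured member, since Ier3 reached 0.83. The part of handling in the members' values was not tested.

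Other cells also express these genes. All 11 genes of T and NK cells were lower with the knockout, against 55.1% of all measured genes. By at least 1.5-fold 10 were lower, against 8.74%. Cd7 and Cd247 were bounds, and a dimmer probe set of Cd8a was higher (0.33). The summed signal of the 11 genes was 43572 in the control and 9035 in the knockout pool. The 5 measured genes of B and plasma cells were all higher, against 44.9% of all measured genes, with a summed signal of 1171 and 4007. All 5 stem cell genes were lower (37368 and 24496 summed), against 55.1% of all measured genes. Most of the stem cell sum was Olfm4 (32027 and 21348), while Lgr5 had 814 and 171 (log2 ratio -2.25). Epithelial genes summed to 198724 and 219803. The 7 measured villus enterocyte genes summed to 187893 and 212853, with 5 higher and 2 lower. The lowest of these was Lct (14250 and 5543, log2 ratio -1.36). The 6 measured myeloid genes summed to 4175 and 3906, with 4 higher and 2 lower. Most of that sum was Lyz2 (3225 and 2477), while Csf1r was higher (121 and 700, log2 ratio 2.53, with 0.65 and 1.21 by its other probe sets). Of 10 stromal and muscle genes 6 were below the floor on both arrays, Col1a1, Col3a1, Pdgfra, Pdgfrb, Dcn and Myh11, and the 4 measured summed to 754 and 743. Of the endothelial and red blood cell genes only Kdr and Hba-a2 passed, both on the control array only. In pooled tissue, fewer cells of a type and less RNA per cell cannot be told apart, and the part of these cells in the members' values was not tested. As to RNA quality, the ratio of 3′ to 5′ signal was 1.98 in the control and 1.64 in the knockout pool for Actb, and 0.785 and 0.742 for Gapdh.

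**Figure D5:**
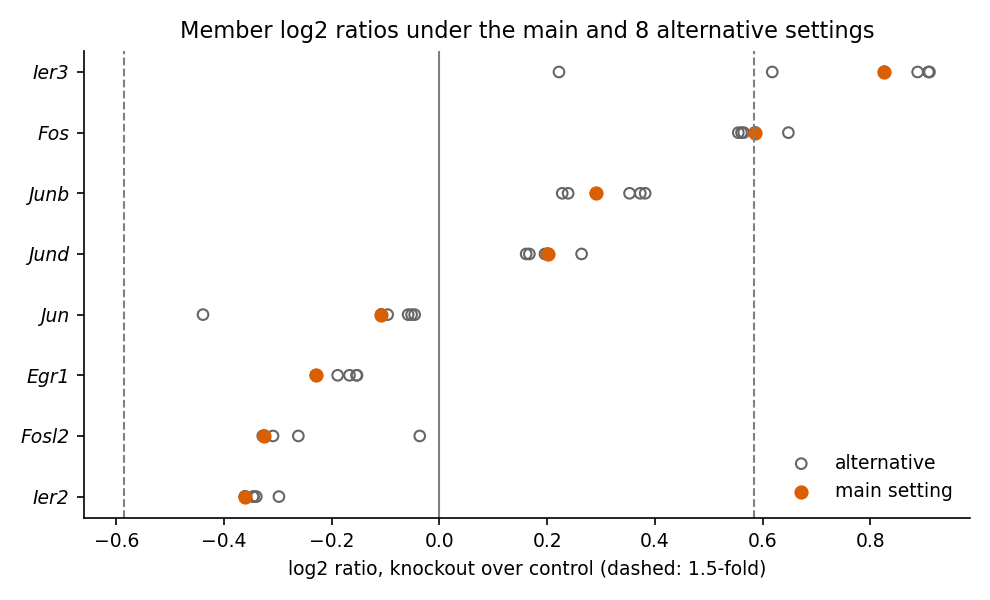
Log2 ratio, knockout over control, of the 8 measured members under the main setting (filled) and 8 alternative settings (open), with 1.5-fold as dashed lines. No member changed sign; Ier3 moved most, down to 0.22 with the highest floor, and Fos lay on both sides of 1.5-fold.

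Under the 8 alternatives no measured member changed sign, and none of the 8 was at least 1.5-fold lower by its gene value. The ranges were 0.23 to 0.38 for Junb, 0.16 to 0.26 for Jund, -0.23 to -0.15 for Egr1 and -0.36 to -0.30 for Ier2. Jun moved to -0.44 and Fosl2 to -0.037 when a gene's probe sets were summarised by their median. The 30th and 70th percentile floors and both probe set alternatives could not move Fos, Egr1 or Ier2. Each of these genes has 1 measured probe set, above all of these floors. All 8 alternatives reprocess the same arrays, so a kept sign says nothing about the spread between pools.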

How the data were processed

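The authors deposited 1 linear signal intensity per probe set and array; per the submitters' processing notes MAS5 made them, with version and options not stated. Both arrays had a mean of 500.00 after trimming 2% at either end, so the values were used as deposited. The 45101 probe sets match the full mouse genome array, not the smaller one of the design text. The 64 control probe sets were set aside, and probe sets with several symbols (932) were not named. Symbols came from the platform annotation, updated through Entrez identifiers to RefSeq (GRCm38.p6).

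Values under the floor were raised to it before the log2 ratio, which understates differences of dim genes. A gene above it on 1 array has a bound, written "at least". The probe error is the SD of the difference between the log2 ratios of a gene's 2 brightest probe sets, divided by the square root of 2. Named are the members, Lpcat3, list genes past 1.5-fold, the 3 highest and 3 lowest of each list, and markers; other list genes were named after their values were seen. The members and lists were chosen with earlier results of these data known. Python 3.11.15, pandas 2.3.3 and statsmodels 0.14.6 (lowess, span 0.3) were used, and the steps were tested on simulated data. Alternatives changed the scaling (median centring, quantile, lowess), the floor (30th or 70th percentile, or a pseudocount), and the probe sets (no _s_at or _x_at, or the median per gene).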

Additional observations from a re-analysis of the deposited data

How the results depend on the processing

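No paired analysis was possible because there is 1 array per genotype, and leaving out an array would leave no comparison. The count of members higher by at least 1.5-fold, 2 in the main setting, was 1 after quantile normalisation (Ier3), 1 after lowess (Ier3) and 1 under a floor at the 70th percentile (Fos). It was 3 under a floor at the 30th (Fos, Fosl1, Ier3) and 2 with the pseudocount (Fosl1, Ier3). Fosl1 was below the main floor on both arrays, where signals have no reliable order. Counting each probe set in place of each gene, an alternative chosen after seeing the data, gave 1 at least 1.5-fold lower, that of Jun, against 0. Of all 11496 measured genes, 547 were higher and 1005 lower by this limit. These became 1234 and 1889 of 15016 under the 30th percentile floor, and 308 and 432 of 8293 under the 70th. The floor sets how many genes are measured and how many of them are dim. With the pseudocount the counts were 535 and 792 of 18193. They were 705 and 841 after median centring, 650 and 851 after quantile normalisation and 638 and 874 after lowess, so the excess of lower genes depends on the scaling. The median of the bZIP list lay between 0.16 and 0.32, of AP-1 targets between 0.13 and 0.35 and of heat shock genes between 0.16 and 0.27. The members' median stayed between 0.046 and 0.11. The median of the other immediate early genes lay between -0.098 and 0.024 and that of the upstream genes between -0.068 and 0.0021, so the sign of each depended on the setting. With 1 array per pool, members at signals below 300, Ier3 above all, have the largest probe error.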
